A study of Homo sapiens with 16 samples.

Results

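DoGs (downstream-of-gene transcripts) are readthrough RNAs that continue past the annotated end of a gene. The DoGs described here are those of 35 solute carrier genes, taken from 3139 DoGs for which FPKM values (fragments per kilobase of region, scaled to the mapped fragments of the library) were deposited. Members were the rows whose gene symbol begins with SLC or SLCO, a family number and a letter. Symbols with a hyphen and the mitochondrial SLC25 carriers were left out. Of the 35, 34 encode transporters or members of transporter families, while SLC7A6OS matches the pattern by its name only. RNA came from HEK293, an immortalised human embryonic kidney line, kept in medium alone (control conditions) or in medium with 200 mM sorbitol and 100 μg/mL cycloheximide for 9 h (DoG-inducing conditions). Both agents were always given together, so the osmotic load and the block of translation cannot be told apart. Each condition was prepared in 4 ways with 2 biological replicates, giving 16 libraries in 8 groups: the conventional preparation, acid guanidinium-phenol-chloroform (AGPC) extraction; hiAGPC, the same chemistry with added heating; the SERIPH 1st-step fraction, the aqueous phase of an ordinary extraction; and the SERIPH 2nd-step fraction, RNA released from the washed interphase at 55 °C. All 4 came from 1 cell line, and the values cover downstream regions alone. The identity of the cells and the levels of the SLC mRNAs were therefore not analysed here.

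Solute carriers are membrane proteins that move amino acids, sugars, ions, metals, nucleotides and organic anions across the plasma membrane or organelle membranes. Cells in hyperosmotic medium shrink, and they recover volume by taking up ions and then organic osmolytes. SLC12A2, a sodium-potassium-chloride cotransporter, and SLC6A6, the taurine transporter, are known for this role. A DoG arises when cleavage and polyadenylation at the gene end fail, so that the polymerase transcribes on. Many such RNAs are semi-extractable: they stay in the interphase of an ordinary extraction and enter the aqueous phase only after heating or shearing.

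FPKM values were low and rounded to 0.01. In the control libraries, the median over the 35 DoGs was 0.03 to 0.07 FPKM, and 4 to 9 of them were listed at 0. Under DoG-inducing conditions the median was 0.12 to 0.16 FPKM in the conventional and 1st-step libraries, 0.62 and 0.64 in hiAGPC and 0.89 and 0.94 in the 2nd-step fraction. The same medians over all 3139 DoGs were 0.07 to 0.10, 0.14 to 0.16, 0.58 and 0.84 to 0.86, so the SLC genes followed the shift of the whole set. Differences below are on the scale of log2(FPKM + 0.1), from limma fitted to all 3139 DoGs, and a DoG was called at a Benjamini-Hochberg adjusted p under 0.05 with an absolute log2 difference of at least 1. Because most DoGs moved together, each comparison was also run after centring every library on the median of its DoGs. That centring moved the median difference over all DoGs, DoG-inducing against control conditions, from 0.44 to -0.12 in the conventional preparation, from 1.86 to -0.06 in hiAGPC, from 0.43 to -0.06 in the 1st-step fraction and from 2.38 to 0.13 in the 2nd-step fraction. Centred differences, given beside the uncentred ones, say how a DoG moved relative to the others. Since FPKM is a share of each library, fewer cells giving a DoG and less of it per cell cannot be told apart. It also does not give the amount of DoG RNA that a preparation held. Library input was 100 to 500 ng RNA for the 1st step and 5 to 50 ng for the 2nd.

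The listed regions of the 35 genes lie on 15 chromosomes (GRCh38), 141 regions over the 16 libraries out of 13532. They begin at the gene end of GENCODE v44 in 24 genes and within 1 kb of it in 33. The authors called regions with GENCODE v49, whose gene ends were not compared here. The exceptions were SLC17A1 and SLC17A2, neighbours on chromosome 6, with starts 1383 and 5862 bases past the v44 end. Gene ends are shown for 7 members because they mark the boundary that the DoG crosses: the osmotic and volume transporters SLC12A2 and SLC6A6, the 3 with the largest rise in the 2nd-step fraction (SLCO2B1, SLC35D2, SLC41A2) and 2 that fell (SLC36A1, SLC49A4). Each stretch holds the last 30 bases of the gene and 70 bases past it, 5′ to 3′ on the gene's strand from GRCh38, with the polyadenylation hexamers AATAAA and ATTAAA in the gene part in capitals.
SLC12A2, chr5:128189648-128189747, plus strand: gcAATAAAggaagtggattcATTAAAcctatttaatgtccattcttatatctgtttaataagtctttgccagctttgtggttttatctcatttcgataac
SLC6A6, chr3:14489320-14489419, plus strand: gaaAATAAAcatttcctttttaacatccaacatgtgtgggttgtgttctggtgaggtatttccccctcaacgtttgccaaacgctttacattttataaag
SLC41A2, chr12:104801731-104801830, minus strand: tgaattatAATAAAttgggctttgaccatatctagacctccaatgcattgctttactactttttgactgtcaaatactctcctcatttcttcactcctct
SLCO2B1, chr11:75206520-75206619, plus strand: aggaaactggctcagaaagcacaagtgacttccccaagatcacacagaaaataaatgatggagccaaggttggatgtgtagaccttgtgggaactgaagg
SLC35D2, chr9:96313374-96313473, minus strand: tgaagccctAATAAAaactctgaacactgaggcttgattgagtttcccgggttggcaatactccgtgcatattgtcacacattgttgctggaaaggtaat
SLC36A1, chr5:151492350-151492449, plus strand: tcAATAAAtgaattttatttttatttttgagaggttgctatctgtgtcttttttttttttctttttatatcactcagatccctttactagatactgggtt
SLC49A4, chr3:122881110-122881209, plus strand: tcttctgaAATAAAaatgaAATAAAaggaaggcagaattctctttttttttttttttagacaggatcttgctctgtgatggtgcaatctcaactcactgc
Of these, 6 carry a hexamer before the annotated end, and SLC12A2 and SLC49A4 carry a pair each. SLCO2B1 has none before its end. Over all 35 members, AATAAA or ATTAAA occurred on the sense strand within the last 50 bases in 29 (82.9%), against 2132 of 3131 DoG genes found in the annotation (68.1%). On the antisense strand it occurred in 7 (20.0%) against 12%. AATAAA by itself was found in 80.0% of members and 54.2% of all. A match says only that the letters are in the window.

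Few SLC DoGs were detected under control conditions, and most of those found under DoG-inducing conditions were in the 2nd-step fraction and hiAGPC. A DoG was listed in a library when the submitters' caller traced coverage for at least 10 kb past the gene end. Under control conditions, 3 of 35 were listed in both replicates of the conventional preparation (8.73% of all DoGs), 2 in the 1st-step fraction (6.91%), 4 in hiAGPC (12.9%) and 4 in the 2nd-step fraction (18.2%). Under DoG-inducing conditions, the counts were 3 (9.72% of all DoGs), 2 (8.09%), 17 and 27. The 17 in hiAGPC are 48.6% of the members (44.3% of all DoGs), and the 27 in the 2nd-step fraction are 77.1% (64.0% of all DoGs).

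**Figure D1:**
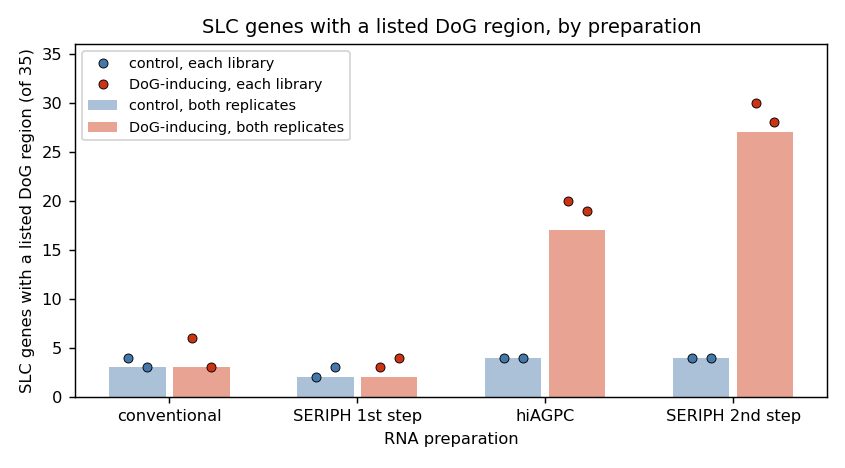
Number of SLC genes, of 35, with a listed DoG region in each preparation, under control (blue) and DoG-inducing conditions (red). Points are single libraries and bars the genes listed in both replicates, and the bars reach 17 in hiAGPC and 27 in the SERIPH 2nd step under DoG-inducing conditions, all other bars being at 4 or below.

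Of the 35, 30 were listed only in libraries of the DoG-inducing conditions (74.0% of all DoGs), 2 only in control libraries (12% of all) and 3 in both (13.8% of all). SLC36A1, a proton-coupled amino acid transporter of lysosomes, and SLC43A1, a neutral amino acid transporter, were listed only in control libraries. SLC16A1, the monocarboxylate transporter that carries lactate, SLC35D1, a nucleotide sugar transporter of the endoplasmic reticulum, and SLC49A4, a lysosomal membrane protein, were listed in both conditions. Among libraries of the DoG-inducing conditions, 10 genes were listed in the 2nd-step fraction alone. They include SLC39A3, a zinc importer, SLC41A1, a magnesium transporter, and SLC66A1, a lysosomal exporter of cationic amino acids. For 3 genes (SLC29A2, SLC35E4, SLC7A6OS), the listing came from 1 library of 16. SLC49A4 was the single gene that the DoG-inducing libraries listed in aqueous preparations (1 conventional, 1 1st-step) and in neither hiAGPC nor the 2nd-step fraction. The shares of all DoGs were not counted for listing in the 2nd-step fraction alone, in 1 library of 16 or in aqueous preparations only.

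Before centring, the DoG-inducing conditions raised most SLC DoGs in hiAGPC and in the 2nd-step fraction. Every member had a listed region in at least 1 library, 30 of 35 only under DoG-inducing conditions and 2 only in control. Members thus entered through libraries where their DoG was high. The directions given here and below, between conditions and between preparations, are therefore partly fixed by that entry. The FPKM of each gene was also counted over 1 region in all libraries. For most members that region was the longest listed in a 2nd-step library under DoG-inducing conditions, so it too partly fixes the directions. In the 2nd-step fraction, 29 of 35 were called higher (74.6% of all DoGs) and 4 lower (11.7% of all). In hiAGPC, 26 were called higher (70.2% of all DoGs) and 2 lower (9.14% of all). The conventional preparation gave 10 higher (22.2% of all) and 2 lower (11%), and the 1st-step fraction 9 higher (21.8%) and 3 lower (10.6%). Median differences of the members were 2.80 in the 2nd-step fraction, 1.97 in hiAGPC, 0.68 in the conventional preparation and 0.72 in the 1st-step fraction, beside 2.38, 1.86, 0.44 and 0.43 over all DoGs. Leaving out the 3 to 6 members listed at 0 in the control group of a preparation, they were 2.69, 1.82, 0.60 and 0.54. The members' counts were thus near the background. After centring, 8 members were called higher (18.5% of all DoGs) and 8 lower (28.2%) in the 2nd-step fraction, and 4 (13.9%) and 9 (28.7%) in hiAGPC. The centred counts were 2 higher (8.6%) and 4 lower (19.6%) in the conventional preparation, and 2 (8.89%) and 4 (18.6%) in the 1st-step fraction. Both DoG-inducing replicates lay above both control replicates for 30 members in the 2nd-step fraction (80.8% of all DoGs), 29 in hiAGPC (80.4%), 24 in the conventional preparation (64.5%) and 23 in the 1st-step fraction (58.6%).

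**Figure D2:**
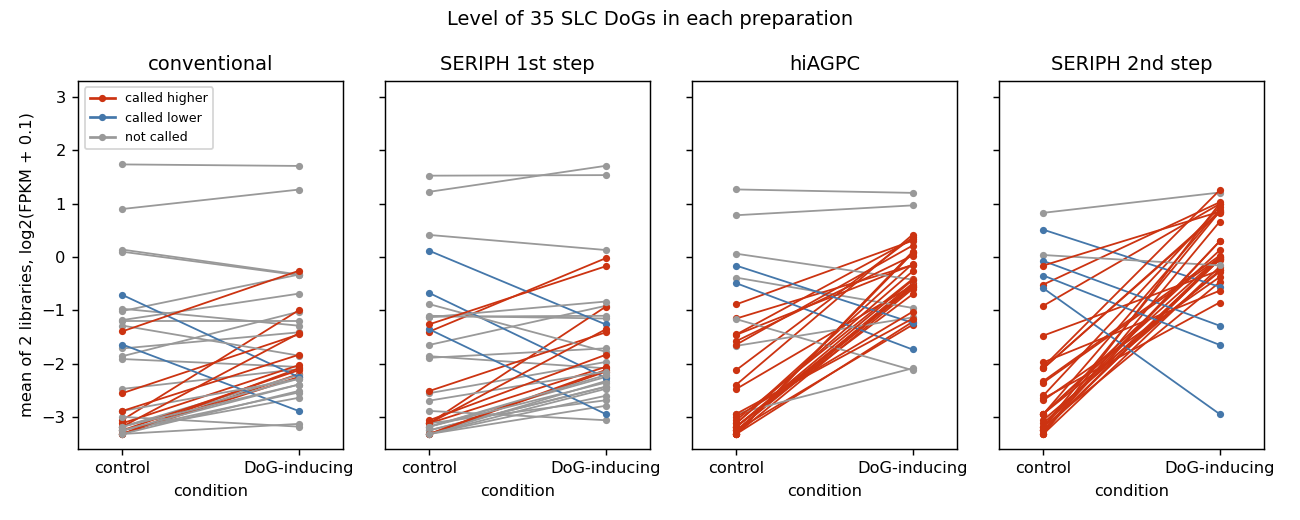
Level of each of the 35 SLC DoGs, as the mean log2(FPKM + 0.1) of 2 libraries before centring, under control and DoG-inducing conditions in the 4 preparations, with 1 line per gene coloured by its call. Lines called higher number 10 in the conventional preparation, 9 in the SERIPH 1st step, 26 in hiAGPC and 29 in the SERIPH 2nd step, and after centring on the median of all DoGs these become 2, 2, 4 and 8.

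Combining the preparations, 8 genes were called higher in all 4: SLC20A2, SLC2A1, SLC35D2, SLC37A2, SLC41A2, SLC6A6, SLC6A8 and SLC7A6OS. A further 15 were called higher in hiAGPC and the 2nd-step fraction and in neither aqueous preparation. They include SLC12A2, SLC7A5, SLC16A1 and SLCO2B1. SLC35E4, SLC39A3 and SLC41A1 were called higher in the 2nd-step fraction alone, but SLC41A1 only just, and SLC35E4 and SLC41A1 had negative differences there after centring. SLC36A1 was called lower in all 4 preparations, and SLC29A2 in the 2nd-step fraction alone. SLC1A5 and SLC35E3 were called in none. The shares of all DoGs with these combinations were not counted, so the combinations cannot be read as a trait of SLC genes. A call in some preparations and not in others does not by itself show a difference between them. For the 1st-step and 2nd-step fractions that difference was tested and is given below.

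The osmotic and volume transporters SLC6A6 and SLC12A2 rose in hiAGPC and in the 2nd-step fraction before centring. After centring SLC12A2 did not pass the test in either, at 0.02 ± 0.112 (limma, adjusted p = 0.865) and 0.09 ± 0.112 (adjusted p = 0.447). They come from a list of 7 SLC genes with a role in osmolyte uptake or volume recovery, 4 of which had no row among the 3139 DoGs. The taurine transporter SLC6A6 was at 0.00 to 0.02 FPKM in all 8 control libraries. Under DoG-inducing conditions its DoG was at 0.29 and 0.25 FPKM in the conventional preparation, 0.23 and 0.36 in the 1st-step fraction, 0.65 and 0.63 in hiAGPC and 1.16 and 1.09 in the 2nd-step fraction. No library of the DoG-inducing conditions overlapped a control library. The rise was 1.75 ± 0.136 (SE, n = 2 against 2; limma, adjusted p = 2.36e-07) on the log2 scale in the conventional preparation and 3.48 ± 0.136 in the 2nd-step fraction (adjusted p = 5.38e-11). After centring it remained at 0.83 to 1.26 in the 4 preparations.

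SLC12A2, which brings sodium, potassium and chloride into the cell, had control values of 0.07 to 0.10 FPKM. With sorbitol and cycloheximide its DoG was at 0.17 and 0.10 FPKM in the conventional preparation and 0.16 and 0.15 in the 1st-step fraction. It reached 0.62 and 0.56 in hiAGPC and 0.83 and 0.95 in the 2nd-step fraction. In the latter it was 9.37-fold higher than in control, and the log2 difference was 2.34 ± 0.127 (limma, adjusted p = 1.46e-09). Relative to the other DoGs it did not pass the test in any preparation, with centred differences of -0.18 in conventional, 0.02 in hiAGPC, 0.09 in the 1st-step and 0.09 in the 2nd-step libraries. It was not called higher in the aqueous preparations, where the differences were 0.37 and 0.58.

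**Figure D3:**
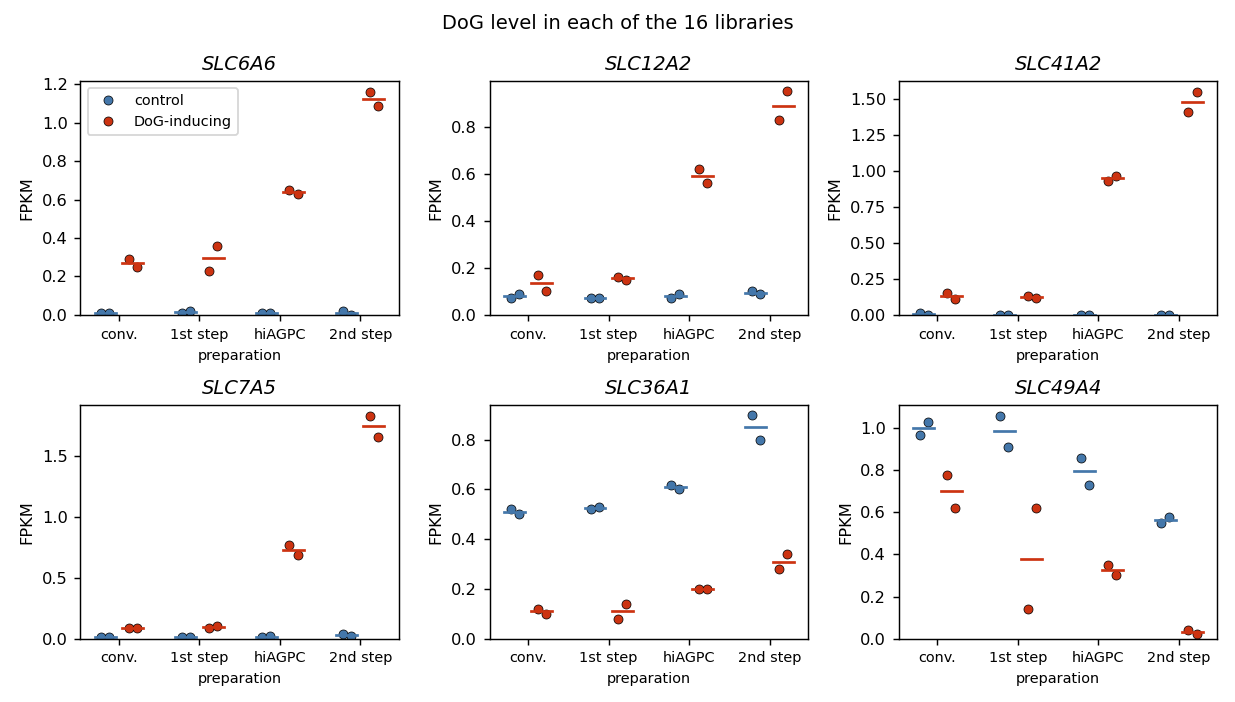
FPKM of the DoGs of SLC6A6, SLC12A2, SLC41A2, SLC7A5, SLC36A1 and SLC49A4 in each of the 16 libraries, control in blue and DoG-inducing in red, with points for replicates and a line at their mean. The first 4 genes are highest in the 2nd step under DoG-inducing conditions, at 0.83 to 1.83 FPKM (centring turns the 2nd- against 1st-step difference of SLC12A2 and SLC6A6 to -0.03 and -0.33), whereas SLC36A1 is lower under those conditions in every preparation and SLC49A4 falls to 0.04 and 0.02 FPKM in the 2nd step.

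Among the other amino acid transporters the DoGs went both ways. Of 6 members of these families, SLC6A6 included, 3 were called higher and 2 lower in the 2nd-step fraction (74.6% and 11.7% of all DoGs). Transporter classes are small, and no class was tested against these shares. SLC7A5, the plasma membrane exchanger of large neutral amino acids, was at 0.01 to 0.04 FPKM in the control libraries. It was at 0.09 to 0.10 FPKM in the aqueous preparations of the DoG-inducing conditions, 0.77 and 0.69 in hiAGPC and 1.83 and 1.66 in the 2nd-step fraction. The 2nd-step rise was 3.83 ± 0.0893 (limma, adjusted p = 5.3e-13; 1.58 after centring). SLC6A8, the creatine transporter, had more DoG signal in control cells, 0.21 to 0.41 FPKM outside the 2nd-step fraction and 0.14 and 0.13 within it. It rose in all 4 preparations, to 1.72 and 1.64 FPKM in the 2nd-step fraction (12.4-fold; 2.92 ± 0.147, limma adjusted p = 6.61e-10), although in hiAGPC the uncentred rise of 1.86 became -0.06 after centring.

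SLC36A1 and SLC43A1 fell. SLC36A1 was at 0.50 to 0.62 FPKM in the control conventional, hiAGPC and 1st-step libraries and at 0.90 and 0.80 in the control 2nd-step fraction. Under DoG-inducing conditions it was at 0.12 and 0.10 FPKM in the conventional preparation, 0.08 and 0.14 in the 1st-step fraction, 0.20 and 0.20 in hiAGPC and 0.28 and 0.34 in the 2nd-step fraction. The groups did not overlap in any preparation, and the log2 difference ran from -1.59 to -1.21 (SE 0.124; limma, highest adjusted p = 8.56e-07). Centring made the fall larger, from -3.46 to -2.09. SLC43A1 was at 0.68 and 0.69 FPKM in the control 2nd-step fraction and at 0.25 and 0.19 under DoG-inducing conditions, a difference of -1.30 ± 0.111 (limma, adjusted p = 1.42e-07). It was called lower in the conventional, 1st-step and 2nd-step libraries. In hiAGPC it went from 0.35 and 0.34 FPKM to 0.11 and 0.15, and the difference of -0.96 stayed short of the threshold of 1 with an adjusted p of 3.35e-06 (limma). SLC1A5, the glutamine transporter, had DoG values of 1.60 to 2.69 FPKM in control and 1.82 to 3.38 under DoG-inducing conditions. None of its differences, from 0.18 to 0.49, reached the threshold of 1. The adjusted p (limma) was 0.0206 in the conventional preparation, 0.182 in hiAGPC, 0.00412 in the 1st-step and 0.0129 in the 2nd-step fraction. After centring the differences were negative in all 4 preparations and called lower in hiAGPC (-1.73) and the 2nd-step fraction (-1.87).

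The DoGs of the sugar transporter families rose in hiAGPC and the 2nd-step fraction, 3 of 3 members in each (70.2% and 74.6% of all DoGs). SLC5A5 had a centred difference of -0.31 in hiAGPC. SLC2A1, the glucose transporter GLUT1, was at 0.01 to 0.03 FPKM in control libraries. It was at 0.43 and 0.37 FPKM in the conventional preparation of the DoG-inducing conditions, 0.47 and 0.38 in the 1st-step fraction, 0.85 and 0.78 in hiAGPC and 1.03 and 0.95 in the 2nd-step fraction. Its rise of 2.06 ± 0.0987 in the conventional preparation (limma, adjusted p = 4.46e-09) was the highest among the 35 members there, and 1.5 remained after centring. SLC37A2, which exchanges glucose-6-phosphate for phosphate in the endoplasmic reticulum, was at 0.07 to 0.15 FPKM in control libraries. It rose to 2.21 and 2.35 FPKM in the 2nd-step fraction (16.3-fold; 3.31 ± 0.0749, limma adjusted p = 4.24e-13) and also in both aqueous preparations, to 0.26 to 0.29 FPKM. The third member by family, SLC5A5, transports iodide and not sugar. It was called higher in hiAGPC, at 0.92 against 0.235 FPKM, and in the 2nd-step fraction, at 1.71 against 0.135 FPKM.

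Family 35, whose known substrates are mostly nucleotide sugars of the Golgi and endoplasmic reticulum, was mixed. SLC35D2, a transporter of nucleotide sugars into the Golgi, was at 0.00 or 0.01 FPKM in all 8 control libraries. It was at 0.15 and 0.12 FPKM in the conventional preparation of the DoG-inducing conditions, 0.12 and 0.14 in the 1st-step fraction, 0.98 and 0.96 in hiAGPC and 1.72 and 1.68 in the 2nd-step fraction. The rise there was 4.03 ± 0.0743 (limma, adjusted p = 1.27e-13; 1.78 after centring). Its relative SLC35D1 was at 0.15 to 0.30 FPKM in control and at 0.86 and 0.75 in hiAGPC and 0.73 and 0.75 in the 2nd-step fraction under DoG-inducing conditions. Both rises were called, 1.31 and 1.22 (SE 0.123), but both were negative after centring, -0.60 and -1.02. SLC35B1, which carries ATP into the endoplasmic reticulum, did the same: it was at 1.94 and 1.93 FPKM in the 2nd-step fraction against 0.55 and 0.65 in control, and the difference of 1.54 became -0.70 after centring.

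SLC35E4, an orphan member, was at 0.61 and 0.33 FPKM in the 2nd-step fraction of the DoG-inducing conditions, against 0.08 and 0.04 in control. The rise of 1.80 ± 0.19 (limma, adjusted p = 1.24e-06) became -0.45 after centring. SLC35E3, also an orphan, was at 0.87 to 1.44 FPKM in the control libraries and 0.59 to 1.04 under DoG-inducing conditions. Its differences of -0.49 to -0.19 were not called in any preparation. Of the 5 members of the family, 4 were called higher in the 2nd-step fraction (74.6% of all DoGs) and 3 in hiAGPC (70.2%).

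All 5 metal transporters were called higher in the 2nd-step fraction (74.6% of all DoGs) and 3 in hiAGPC (70.2%). Centring turned the 2nd-step differences of SLC31A1 and SLC41A1 negative. SLC41A2, a magnesium transporter, was at 0.00 or 0.01 FPKM in control libraries. It reached 0.93 and 0.97 FPKM in hiAGPC and 1.41 and 1.55 in the 2nd-step fraction of the DoG-inducing conditions, with 0.11 to 0.15 in the aqueous preparations. The rise was 3.98 ± 0.0889 in the 2nd-step fraction (limma, adjusted p = 3.82e-13; 1.73 after centring). Its relative SLC41A1 behaved differently. Its DoG was at 2.29 to 3.25 FPKM in the control conventional, hiAGPC and 1st-step libraries and 2.19 to 3.17 under DoG-inducing conditions. In the 2nd-step fraction it was at 0.76 and 0.83 FPKM in control and 1.68 and 1.72 with sorbitol and cycloheximide. That difference of 1.01 ± 0.0988 was at the edge of the threshold (limma, adjusted p = 5.77e-07) and became -1.24 after centring. Without control 2nd-step replicate 1 it was 0.95 and without DoG-inducing 2nd-step replicate 2 it was 0.99, and it was not called in either case.

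Zinc transport was represented by SLC30A1, an exporter, and SLC39A3, an importer. SLC30A1 was at 0.00 or 0.01 FPKM in control and at 0.93 and 0.81 in the 2nd-step fraction of the DoG-inducing conditions (3.21 ± 0.0833, limma adjusted p = 1.26e-12; 0.96 after centring). SLC39A3 was at 0.08 and 0.12 FPKM in the control 2nd-step fraction and 0.79 and 1.06 with sorbitol and cycloheximide. In the 1st-step fraction it was at 0.67 and 0.28 FPKM in control and 0.13 and 0.27 under DoG-inducing conditions, so those groups were separated by 0.01 FPKM only. The 2nd-step rise was 2.35 ± 0.298 (limma, adjusted p = 7.26e-06), of which 0.10 remained after centring. The copper importer SLC31A1 was called higher in hiAGPC (1.00), the 1st-step fraction (1.38) and the 2nd-step fraction (1.34). Its hiAGPC call was at the edge of the threshold and was lost without control hiAGPC replicate 1 or DoG-inducing hiAGPC replicate 2. After centring the hiAGPC and 2nd-step differences were -0.91 and -0.90. The phosphate transporter SLC20A2 was at 0.01 to 0.03 FPKM in control and rose in all 4 preparations, to 0.86 and 0.94 FPKM in the 2nd-step fraction (2.94 ± 0.096, limma adjusted p = 9.69e-12; 0.69 after centring).

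Among organic ion and vesicular transporters, 6 of 6 were called higher in hiAGPC and in the 2nd-step fraction (70.2% and 74.6% of all DoGs). Their differences in both were all above 0 after centring. SLCO2B1, an organic anion transporter, was listed at 0 FPKM in all 8 control libraries. Under DoG-inducing conditions it was at 0.08 and 0.07 FPKM in the conventional preparation, 0.09 and 0.07 in the 1st-step fraction, 0.98 and 0.94 in hiAGPC and 1.88 and 1.92 in the 2nd-step fraction. Its difference of 4.32 ± 0.0699 in the 2nd-step fraction (limma, adjusted p = 6.32e-14; 2.07 after centring) was the highest of the 35, but its size is set by the added 0.1 since the control values are 0. SLC17A1, SLC17A2, SLC17A9 and SLC22A7, transporters of phosphate, organic anions and vesicular nucleotides, were at 0.00 to 0.02 FPKM in control. They were at 0.28 to 0.64 FPKM in hiAGPC and 0.59 to 0.90 in the 2nd-step fraction. SLC17A1 and SLC17A2 were also called higher in the conventional preparation, by 1.12 and 1.07, with 0.57 and 0.51 left after centring.

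Both carboxylate transporters rose in hiAGPC and the 2nd-step fraction, SLC16A11 only before centring. SLC16A11, a monocarboxylate transporter, was at 0.18 and 0.17 FPKM in the control 1st-step fraction and 0.44 and 0.42 in the control 2nd-step fraction. It was at 0.13 and 0.14 FPKM in the 1st-step and 1.88 and 1.90 in the 2nd-step fraction of the DoG-inducing conditions. The 2nd-step rise was 1.91 ± 0.0837 (limma, adjusted p = 1.73e-10), and after centring it was -0.34. SLC16A1 was at 0.06 and 0.07 FPKM in the control 2nd-step fraction and at 1.87 and 1.76 with sorbitol and cycloheximide, a rise of 3.54 ± 0.146 (limma, adjusted p = 9.3e-11; 1.29 after centring). The nucleoside transporters split. SLC28A1, the concentrative one, rose to 0.89 and 0.61 FPKM in the 2nd-step fraction from 0.02 and 0.02. SLC29A2, the equilibrative one, fell there from 1.36 and 1.29 to 0.68 and 0.49 FPKM, by 1.07 ± 0.129 on the log2 scale (limma, adjusted p = 4.57e-06). That call was lost without DoG-inducing 2nd-step replicate 2, the library at 0.49 FPKM.

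SLC49A4 had the steepest fall of the 35 in the 2nd-step fraction, whereas in the other 3 preparations SLC36A1 had the larger negative difference. In control libraries it was at 0.97 and 1.03 FPKM in the conventional preparation, 1.06 and 0.91 in the 1st-step fraction, 0.86 and 0.73 in hiAGPC and 0.55 and 0.58 in the 2nd-step fraction. Under DoG-inducing conditions it was at 0.78 and 0.62 FPKM in the conventional preparation and 0.35 and 0.30 in hiAGPC. It was at 0.14 and 0.62 FPKM in the 1st-step and 0.04 and 0.02 in the 2nd-step fraction. The 2 replicates of the 1st-step fraction thus lay far apart, with an SD of 0.339 FPKM beside SDs of 0.0141 to 0.113 in the other groups. The 2nd-step difference was -2.36 ± 0.354 (limma, adjusted p = 3.41e-05) and the hiAGPC difference -1.07 (adjusted p = 0.012). The hiAGPC call was lost without control hiAGPC replicate 1 (-0.97) or DoG-inducing hiAGPC replicate 2 (-0.99).

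Against the conventional preparation, SLC DoGs had higher FPKM in hiAGPC under DoG-inducing conditions before centring, and no called difference under control conditions. In control cells no member was called in either direction (1.08% of all DoGs higher, 0.0% lower), with 6 of 35 at an unadjusted p under 0.05 in limma (25.5% of all DoGs). Under DoG-inducing conditions 22 of 35 were called higher (68.8% of all DoGs) and 0 lower (0.478%), with 33 at an unadjusted p under 0.05 (89.6% of all). The median difference was 1.27 over the members and 1.40 over all DoGs. SLCO2B1 had the highest, 2.60 ± 0.0699, followed by SLC16A11 at 2.40 ± 0.0837 (limma, adjusted p = 3.81e-11 and 1.01e-10). After centring, 1 member was called higher (3.54% of all DoGs) and 6 lower (16%).

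SLC DoGs had higher FPKM in the 2nd-step than in the 1st-step fraction of the same protocol under DoG-inducing conditions before centring. There 28 of 35 were called higher (79.3% of all DoGs) and 1 lower (2.96%), with a median of 1.87 over the members and 1.99 over all DoGs. Centring left 3 higher (6.72% of all DoGs) and 7 lower (20.4%). SLCO2B1 was at 1.88 and 1.92 FPKM in the 2nd step and 0.09 and 0.07 in the 1st (23.8-fold; 3.48 ± 0.0699, limma adjusted p = 1.54e-12; 1.49 after centring). For SLC7A5 the mean was 1.745 FPKM against 0.095 (18.4-fold; 1.26 after centring). SLC1A5, SLC31A1, SLC35E3 and SLC41A1 had lower values in the 2nd than in the 1st step, with differences of -0.69 to -0.29 that were not called. SLC49A4 was called lower, by -1.68 ± 0.354 (limma, adjusted p = 0.000618), but without DoG-inducing 1st-step replicate 2, the library at 0.62 FPKM, the difference was -0.89 and not called.

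In control cells the 2 fractions differed in 4 members. SLC29A2 and SLC43A1 were higher in the 2nd step (11% of all DoGs were called higher), with 1.36 and 1.29 against 0.37 and 0.36 FPKM for SLC29A2 and 0.68 and 0.69 against 0.30 and 0.28 for SLC43A1. SLC41A1 and SLC39A3 were lower (3.28% of all). SLC41A1 was at 0.76 and 0.83 FPKM in the 2nd step and 2.47 and 3.12 in the 1st, a difference of -1.69 ± 0.0988 (limma, adjusted p = 8.68e-08). The SLC43A1 difference of 1.01 was not called after centring (0.78) or without control 1st-step replicate 2 (0.97), and that of SLC39A3 was not called without control 1st-step replicate 1 (-0.93). Centring, like leaving out control 1st-step replicate 2, gave 1 higher and 5 lower (5.99% and 5.03% of all DoGs with centring), with SLC16A1, SLC5A5 and SLC6A8 newly called lower. The rise from the 1st to the 2nd step was then compared between conditions by an interaction term. It was higher under DoG-inducing conditions for 26 members (72.9% of all DoGs) and lower for SLC29A2 (4.21% of all), with a median of 1.97 over the members and 1.76 over all DoGs. SLC29A2 had the interaction of -1.02 ± 0.183 (limma, adjusted p = 0.000199), and the count was 0 without control 2nd-step replicate 1 or without DoG-inducing 2nd-step replicate 2. After centring 7 members were higher (9.27% of all DoGs) and 7 lower (22.4%).

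Compared with hiAGPC, the 2nd-step fraction of the DoG-inducing conditions was higher by a small and common margin before centring. The FPKM region of most members was the longest listed in a 2nd-step library of these conditions, which partly fixes this direction. For SLC35B1 it was 285 kb long, against 20 kb listed in both hiAGPC libraries. At an adjusted p under 0.05 alone 29 of 35 were higher (68.7% of all DoGs) and 3 lower (4.75%). With the added condition of a log2 difference of at least 1, 3 were called higher (6.91% of all DoGs) and 1 lower (1.75%). The median difference was 0.59 over the members and 0.52 over all DoGs. SLC7A5 was at 1.83 and 1.66 FPKM in the 2nd step and 0.77 and 0.69 in hiAGPC (2.39-fold; 1.15 ± 0.0893, limma adjusted p = 1.83e-06). SLC35E4 was at 0.61 and 0.33 against 0.13 and 0.14 FPKM (1.23 ± 0.19) and SLC39A3 at 0.79 and 1.06 against 0.35 and 0.36 FPKM (1.16 ± 0.298). All 3 fell under the threshold of 1 after centring, at 0.67, 0.75 and 0.68. The SLC35E4 call was lost without DoG-inducing 2nd-step replicate 1 (0.87) and the SLC39A3 call without replicate 2 (0.97). SLC49A4 was lower in the 2nd step, at 0.04 and 0.02 against 0.35 and 0.30 FPKM (-1.71 ± 0.354, limma adjusted p = 0.001).

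**Figure D4:**
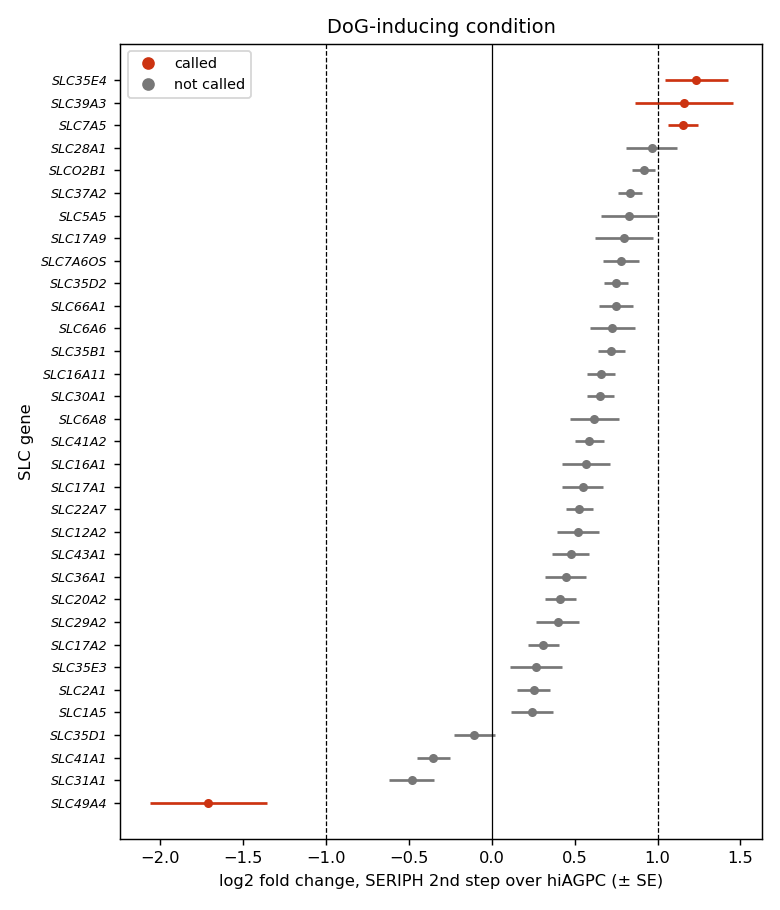
Log2 difference (FPKM + 0.1, before centring) of 33 of the SLC DoGs between the SERIPH 2nd step and hiAGPC under DoG-inducing conditions, ordered by size, with bars of 1 SE and dashed lines at the threshold of 1 in either direction. Most genes lie to the right of 0, the median over all 35 being 0.59 (0.11 after centring), and SLC49A4 lies at -1.71.

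In control cells the 2nd-step fraction and hiAGPC differed in 1 member. SLC41A1 was called lower in the 2nd step (1.47% of all DoGs), at 0.76 and 0.83 FPKM against 2.32 and 2.29, and no member was called higher (0.86% of all), with 13 members at an unadjusted p under 0.05 in limma (37.1% of all).

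Listed SLC regions were longer in the 2nd-step fraction than in hiAGPC. Under DoG-inducing conditions, 15 members were listed in all 4 libraries of these preparations. Their median length was 105.7 kb in the 2nd step and 32.5 kb in hiAGPC, and the median ratio was 2.0. Over all 1287 DoGs listed this way the medians were 62.5 and 35 kb and the median ratio 1.36. In 13 of the 15 the 2 lengths of the 2nd step both exceeded the 2 of hiAGPC (86.7%, against 45.9% of all DoGs). Most lengths were multiples of the 5 kb window. The longest region was no such multiple in 7 of 35 members (20.0%, against 7.05% of all DoGs), SLC35B1, SLCO2B1 and SLC35D2 among them. No test was run on the lengths.

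SLC35B1 had the highest ratio: its region was 285 and 282 kb long in the 2nd step and 20 kb in both hiAGPC libraries. SLCO2B1 was 145 and 147 kb against 30 kb in both. For SLC6A6 the lengths were 70 and 80 kb against 45 and 40 kb. The longest shared regions were those of SLC35D2, 298 and 295 kb against 258 and 255 kb, and SLC37A2, 265 and 300 kb against 175 and 185 kb. SLC20A2 had overlapping lengths, 15 and 55 kb against 25 and 20 kb. SLC35D1 went the other way, with 45 and 35 kb in hiAGPC and 10 kb in each library of the 2nd step, while its FPKM in the 2 preparations differed by -0.10 ± 0.123 on the log2 scale (limma, adjusted p = 0.453). In control cells 3 members were shared. SLC36A1 was listed at 25 kb in both 2nd-step libraries and at 15 kb in both of hiAGPC, and SLC16A1 and SLC35D1 were at 10 kb in all 4.

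**Figure D5:**
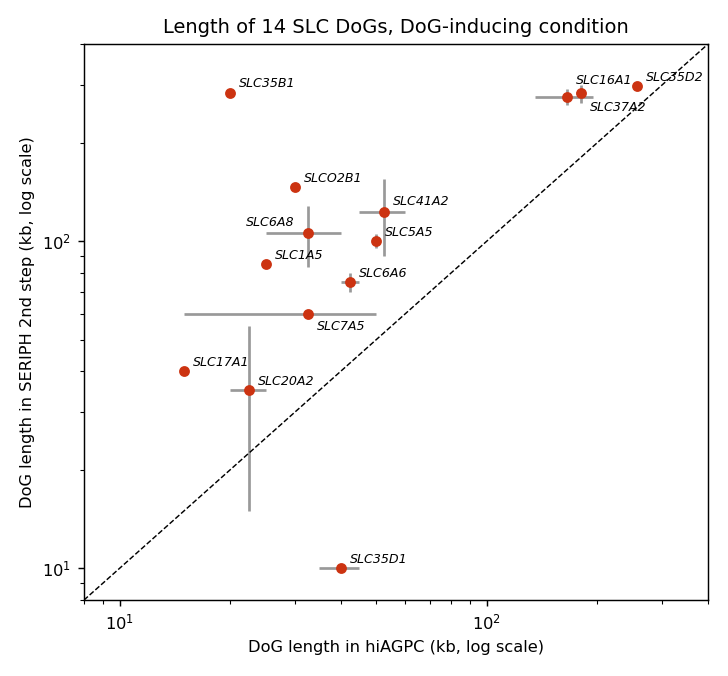
Length of the listed DoG region of 14 of the 15 SLC genes under DoG-inducing conditions, SERIPH 2nd step against hiAGPC in kb on log axes, with points at the mean of 2 libraries, bars spanning both libraries and a dashed line of equal length. All but SLC35D1 lie above the line, SLC35B1 farthest at 283.7 against 20 kb, and the bar of SLC20A2 crosses it.

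Long regions can reach other genes, and this bears on what the FPKM of a DoG counts. For each gene, FPKM was given over 1 region in all libraries, which was as long as the longest listed region for 34 of 35. That region overlapped an annotated protein-coding gene on the same strand for 13 members (37.1%, against 20.7% of all DoGs), and a coding or lncRNA gene for 20 (57.1% against 41.4%). Its median length was 55.0 kb, against 30 kb over all DoGs. The 5 members with the highest mean FPKM over the 16 libraries were SLC41A1, SLC1A5, SLC35E3, SLC35B1 and SLC6A8, and the region of each overlapped a coding gene. SLC41A1, at a mean of 2.37 FPKM, has a region over ELK4, NUCKS1, RAB29 and SLC45A3. SLC1A5, at 2.11 FPKM, overlapped PRKD2 and STRN4, and SLC35E3 at 0.902 FPKM overlapped MDM2. The SLC41A1 region was listed at 10 kb in 1 and 332 kb in the other 2nd-step library of the DoG-inducing conditions, and its FPKM was counted over the longer. Reads of the overlapped genes and of the DoG cannot be told apart in these values, and their part in the results was not tested.

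Among the 22 members whose region overlapped no coding gene on the same strand, 18 were called higher and 4 lower in the 2nd-step fraction under DoG-inducing against control conditions (73.4% and 13.2% of the 2487 DoGs of this kind). In hiAGPC 17 were called higher and 2 lower (69.8% and 10.5%). Between the 2nd and the 1st step under DoG-inducing conditions the counts were 18 and 1 (79.1% and 3.02%), and between the 2nd step and hiAGPC 2 and 1 (6.92% and 2.01%). The 4 that fell (SLC29A2, SLC36A1, SLC43A1, SLC49A4) were all among these 22, and so were SLC12A2, SLC6A6, SLC7A5 and SLC41A2. The gene body of SLC17A2 itself lay inside the listed region of an upstream gene, H1-1, in 1 library. Its values there cannot be told from those of the H1-1 readthrough.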

How the data were processed

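RNA-seq of 16 HEK293 libraries (2 conditions, 4 preparations, 2 biological replicates) was taken as deposited. Per the labels and the study's methods, the authors trimmed reads with fastp 0.25.0, removed rDNA reads with Bowtie2 2.5.4, aligned the rest uniquely with STAR 2.7.11b to GRCh38 with GENCODE v49, and called DoGs with ARTDeco from a minimum length of 10 kb, in windows of 5 kb at a coverage of 0.5, among named protein-coding and lncRNA genes. Libraries were stranded, paired-end 150 bp, from 100 to 500 ng RNA for the 1st step and 5 to 50 ng for the 2nd. The authors deposited FPKM values for 3139 DoGs, rounded to 0.01, and per-library BED regions, whose start and end coordinates gave lengths and overlaps. Counts and depth per library are unknown (nominal depth was 20 to 60 M read pairs), so no counting interval was given. At that nominal depth 1 read over a region of 10 kb or more is worth less than the rounding step, so whole reads were not recovered.

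The comparisons used limma 3.58.1 (R 4.3.3) with an intensity trend on log2(FPKM + 0.1), fitted on all 16 libraries and 3139 DoGs, with Benjamini-Hochberg adjustment over all of them and a threshold of 0.05 and 1 (log2), after a test on simulated data. All tests were two-sided. Per the study's methods, conventional and hiAGPC extractions ran in parallel on the same samples, and both SERIPH steps come from the same lysate. The fit treated the 16 libraries as independent and did not model this pairing. The p-values thus measure the spread between these libraries. Alternatives were pseudocounts of 0.01 and 1, a filter on mean FPKM, centring on the library median, a replicate block, calls by adjusted p alone, each library left out, a minimum length of 20 kb, listing in either replicate and the shorter region. A further one, members whose region overlaps no coding gene, was chosen after seeing the data.

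Members and lists were chosen with earlier results of these data known. The rule for genes named individually gave 21: the osmotic and volume members, the 3 highest and 3 lowest called differences between conditions (hiAGPC, 2nd step) and between preparations (2nd against 1st step, 2nd step against hiAGPC) under DoG-inducing conditions, the 5 highest in mean FPKM, the 3 longest regions, and the 3 largest and 3 smallest length ratios. Results of some members are not reported here, though they remain in all counts and medians. Others appear as examples of their transporter class or of a small count, chosen after their values were seen. Positions and sequences were read from GRCh38 with GENCODE v44, in which 3131 of 3139 identifiers were found.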

Additional observations from a re-analysis of the deposited data

Results flagged for a closer look

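The rise from the SERIPH 1st to the 2nd step differed between conditions, by a test of the interaction in limma, for 14 of the genes taken by the naming rule and for SLC29A2. In SLC29A2, an equilibrative nucleoside transporter, it was smaller under DoG-inducing conditions, with an interaction of -1.02, and that call was lost without control 2nd-step replicate 1 or DoG-inducing 2nd-step replicate 2. The 14 other interactions, given as the step difference under DoG-inducing minus control conditions on the log2 scale, were positive before centring. Among osmotic and volume transporters they were 1.76 for SLC12A2 and 1.72 for SLC6A6. The organic anion transporter SLCO2B1 had 3.48, the zinc importer SLC39A3 3.24, the amino acid exchanger SLC7A5 3.004 and the creatine transporter SLC6A8 1.83. In family 35 they were 2.83 for SLC35D2, 1.97 for SLC35E4, 1.53 for SLC35B1 and 1.05 for SLC35D1. SLC41A2 had 2.81, SLC37A2 2.21, SLC16A11 2.14 and SLC20A2 1.89. After centring, the interactions of SLC6A6, SLC35B1 and SLC35D1 were negative, at -0.03, -0.22 and -0.70. The 11 others stayed positive, from 0.01 for SLC12A2 to 1.73 for SLCO2B1. The SLC35D1 call was lost without control 1st-step replicate 2 (0.94), control 2nd-step replicate 2 (0.97) or DoG-inducing 1st-step replicate 2 (0.98).

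A further 5 SLC genes had a listed region but no FPKM row, so they entered no comparison. SLC5A2, the renal sodium-glucose cotransporter, was listed under DoG-inducing conditions at 125 and 120 kb in the 2nd-step libraries and at 75 kb in 1 hiAGPC library. SLC45A3 was listed there at 200 kb in 1 library of the 2nd step and at 20 kb in both of hiAGPC. SLC4A1, the anion exchanger of red blood cells, had 45 kb and SLCO4A1 20 kb, each in 1 library of the 2nd step under DoG-inducing conditions. SLC16A10 was the single one listed in control cells, at 15 kb in 1 library of the 2nd step.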

How the results depend on the processing

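Counts below are members called higher and lower. With each library centred on its median they were 2 and 4 for DoG-inducing against control conditions in the conventional preparation, 4 and 9 in hiAGPC, 2 higher in the 1st step, and 8 and 8 in the 2nd step. Under DoG-inducing conditions they were 1 and 6 for hiAGPC against conventional, 3 and 7 for the 2nd against the 1st step, and 0 higher for the 2nd step against hiAGPC. The interaction gave 7 and 7, and the steps in control cells 1 and 5. Centring reversed named differences. In hiAGPC these were SLC16A11 -0.13, SLC39A3 -1.39, SLC35E4 -1.06, SLC1A5 -1.73, SLC35B1 -0.72, SLC6A8 -0.060 and SLC35D1 -0.60. In the 2nd step they were SLC16A11 -0.34, SLC35E4 -0.45, SLC41A1 -1.24, SLC1A5 -1.87, SLC35B1 -0.70 and SLC35D1 -1.02. Between the steps under DoG-inducing conditions they were SLC12A2 -0.030, SLC6A6 -0.33, SLC36A1 -1.01, SLC43A1 -0.69, SLC39A3 -0.18, SLC6A8 -0.98 and SLC35D1 -0.52. Against hiAGPC they were SLC36A1 -0.036, SLC43A1 -0.0068, SLC1A5 -0.24, SLC35E3 -0.22 and SLC20A2 -0.068, and for the interaction SLC6A6 -0.030, SLC35B1 -0.22 and SLC35D1 -0.70. A pseudocount of 1 gave 0 and 0 in the conventional preparation and the 1st step, 1 and 0 in hiAGPC and 11 and 0 in the 2nd step. Of all 3139 DoGs it gave 28 and 3 (conventional), 30 and 2 (1st step), 340 and 4 (hiAGPC) and 811 and 42 (2nd step). Among members it gave 0 higher for hiAGPC against conventional, 0 and 1 for the steps in control, 7 and 0 under DoG-inducing conditions, 0 lower (control) and 0 and 0 (DoG-inducing) for the 2nd step against hiAGPC, and 9 and 0 for the interaction. Over all DoGs these were, in the same order, 144 higher, 13 and 13, 575 and 30, 4 lower, 2 and 5, and 512 and 12. A pseudocount of 0.01 gave 19 higher in the conventional preparation and 21 in the 1st step, 6 and 5 for the steps in control, 2 and 2 for the 2nd step against hiAGPC in control, and 2 lower for the interaction. Of all 3139 DoGs it gave, in the same order, 1545 and 1498 higher, 860 and 197, 168 and 106, and 142 lower. By adjusted p alone the counts were 24 and 4 (conventional), 5 lower (hiAGPC) and 23 and 5 (1st step). They were 4 and 1 for hiAGPC against conventional in control with 3 lower when DoGs were induced, 9 and 7 for the steps in control with 4 lower when DoGs were induced, and for the 2nd step against hiAGPC 6 and 5 in control, then 29 and 3 with induction. For the last pair the shares of all DoGs were 68.7% and 4.75%, and for the other counts by adjusted p alone they are not given here. Restricted to the 22 members with no coding overlap, 17 were higher in hiAGPC, 18 in the 2nd step and 18 for the 2nd against the 1st step. The cause of these changes was not tested.

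Leaving out 1 library at a time gave 9 to 12 and 2 (conventional), 25 to 26 and 1 to 2 (hiAGPC), 8 to 10 and 2 to 4 (1st step) and 28 to 29 and 3 to 4 (2nd step). It gave 20 to 22 and 0 for hiAGPC against conventional, 1 to 2 and 1 to 5 for the steps in control, 27 to 28 and 0 to 1 under DoG-inducing conditions, 2 to 3 and 1 for the 2nd step against hiAGPC, and 25 to 27 and 0 to 1 for the interaction. For the steps in control, 5 were lower without control 1st-step replicate 2 and 1 without replicate 1. In hiAGPC 1 was lower without control replicate 1. Requiring 20 kb left 0 members listed in the conventional, hiAGPC and 1st-step controls, 1 in the 2nd-step controls, and 1 each in the conventional and 1st-step libraries of the DoG-inducing conditions. Listing in either replicate gave 6 and 5 in the last pair, and single replicates gave 3 to 6 and 3 to 4 there, 2 to 3 (1st-step control), 3 to 4 (conventional control), 4 (hiAGPC and 2nd-step controls), 19 to 20 (hiAGPC) and 28 to 30 (2nd step). The median length ratio ran from 1.535 to 2.625 over single replicates. Preparations of a condition were made from the same samples, but no source used here ties the replicate numbers across groups. Same-numbered deviations correlated at -0.0726 to 0.127 over 10 comparisons, which does not settle which libraries share a sample. With the replicate block the counts stayed at 29 and 4 in the 2nd step and 26 and 2 in hiAGPC, and none of 99 named differences changed its call. That block shared its term between the conditions, so it does not model pairing within a condition.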
